A study of Mus musculus with 3 samples.

Results

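The genes described here separated plasmacytoid dendritic cells (pDC) of mouse spleen from both conventional dendritic cell (cDC) subsets, CD11b+ cDC and CD8+ cDC, in the same direction. A gene was a member where its signal on the pDC array exceeded that on the brighter cDC array by 2-fold or more, or at least 2-fold below that on the dimmer one. Of 18194 genes measured, 11011 were above background on at least 1 array, and 2084 of these were members. Higher in pDC than in both cDC were 1141 genes, and 943 were lower. The 3 samples came from healthy female C57BL/6 mice aged 6 to 8 weeks that had received no treatment named in the labels. Magnetic beads first removed T and B cells from the spleen preparation, and each subset was then isolated by flow sorting, with RNA pooled from 5 to 8 mice per cell type. The antibodies that defined the pDC gate are not given in the sources used here. From 20 ng of total RNA, biotin-labelled cRNA was made with a 2-cycle amplification and hybridised to 1 Affymetrix mouse array per cell type.

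Plasmacytoid DC are round, long-lived sentinels that sense viral nucleic acids in endosomes through Toll-like receptors and answer with large amounts of type I interferon. Their identity depends on the E protein Tcf4 (E2-2), a basic helix-loop-helix activator that binds E-box sequences and is held in check by the inhibitor Id2. Conventional DC instead specialise in taking up antigen, processing it and presenting it to T cells. The CD11b+ subset is known for presenting to CD4+ T cells, and the CD8+ subset for cross-presenting to CD8+ T cells.

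Values are deposited intensities on a linear scale, called signals here, and 3 signals in a row stand for pDC, CD11b+ cDC and CD8+ cDC in that order. The background level of 111 was the 95th percentile of 87 probe sets for odorant, taste and related receptors, and lower signals were set to it before a fold was taken. Where the dim side lay at background the fold is a lower bound, written as at least that size. The fold given for a gene is always the lesser of its 2 folds, against the nearer cDC array. With 1 array per cell type there was no spread between samples and no test, so folds are sizes on these 3 arrays, and differences between animals, sorts and amplifications cannot be told apart from those between cell types. Within the arrays, the lesser log2 differences of 2 probe sets for the same gene differed with an SD of 0.703 over 4966 genes. A second probe set was above background for 487 of the higher genes, of which 340 (69.8%) passed 2-fold in the same direction and 0 in the opposite one. The same held for 267 of 432 lower genes (61.8%), and 1 passed in the opposite direction. In sorted populations, a smaller share of cells with a transcript and less transcript per cell cannot be told apart.

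The deposited values of the 3 arrays had similar distributions, with medians of 97.8 to 99.6 and 10339 to 10407 genes above background. Some signals recurred exactly on 2 arrays, such as 65924.3 for Notch2 on the pDC and CD11b+ arrays and 5232.7 for Cdk1 on both cDC arrays. Whether processing made the arrays alike was not tested, so the likeness does not show that the samples were comparable. The signal ratio of 3' to 5' control probe sets for beta-actin was 5.71 for pDC, 2.91 for CD11b+ cDC and 4.08 for CD8+ cDC, and for Gapdh it was 16.2, 9.68 and 17.6. Spike-ins of bacterial transcripts differed in mean log2 signal, at 14.63, 14.27 and 15.27. Scaling the arrays on those spike-ins moved the median difference of pDC to -0.29 against CD11b+ cDC and to 0.60 against CD8+ cDC on the log2 scale, and folds below are on the deposited scale.

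Most known markers followed the sort labels. Siglech, the sialic acid-binding lectin that marks mouse pDC, had a pDC signal of 106310, against 52.2 in CD11b+ and 53.4 in CD8+ cDC, so it was at least 956-fold higher in pDC. Ly6d, a GPI-anchored surface protein of lymphoid progenitors and pDC, gave 42377, 50.7 and 50.9 (at least 381-fold). Both were at background on the cDC arrays. Tcf4 gave 172720 in pDC, 5895 in CD11b+ and 2420 in CD8+ cDC, 29.3-fold higher. Bst2 (tetherin, the antigen of the PDCA-1 antibody) gave 287619, 3551 and 4934, 58.3-fold higher. Ccr9, a chemokine receptor for homing to gut and thymus, gave 126946, 412 and 7355, 17.3-fold higher. Tcf4 and Bst2 were well above background in cDC too. For Ccr9 the CD8+ array was the brighter of the cDC pair, and in CD11b+ cDC 2 of its other probe sets gave 66.0 and 98.1, at background. The cDC sorts also carried their marks: Itgam (CD11b) was at 2786 on the CD11b+ array and at background on the others, and Xcr1, a chemokine receptor of cross-presenting DC, was at 10168 on the CD8+ array and at background on the others. Cd8a was brightest in CD8+ cDC (203567) but reached 32230 in pDC against 702 in CD11b+ cDC. Of the CD11b+ cDC markers, Cd4 was brightest in pDC, at 37302, 14501 and 110, and Sirpa gave 36974, 78989 and 2545.

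**Figure D1:**
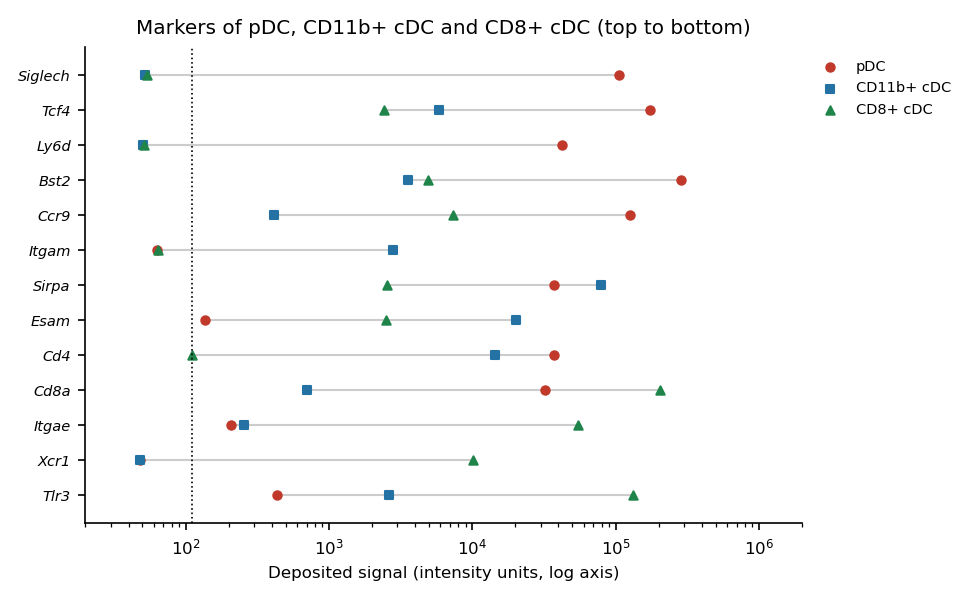
Deposited signals (log axis) of 13 marker genes on the pDC, CD11b+ cDC and CD8+ cDC arrays, 1 array each, with the background level dotted. The 5 pDC markers at the top are brightest on the pDC array, whereas Sirpa, Cd4 and Cd8a are shared by pDC with 1 cDC subset.

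Markers of other spleen cells differed by list in how many were detected. Cd3e, Cd3d and Cd3g of the T cell receptor complex, and Cd79a, Pax5 and Ebf1 of B cells, were at background on all 3 arrays. Of 13 T cell markers 7 were at background on every array, and of 10 B cell markers 5 were. The same held for 6 of 11 NK cell, 5 of 7 basophil and mast cell and 4 of 8 platelet markers, but for only 1 of 13 monocyte, 2 of 15 macrophage, 2 of 12 neutrophil, 1 of 9 plasma cell and 1 of 6 erythroid markers. The summed signals on the pDC, CD11b+ and CD8+ arrays were 6431, 17596 and 19094 for T cell markers and 154398, 108389 and 23046 for B cell markers, and the brightest B cell marker was Spib in pDC (142803), Cd22 in CD11b+ cDC (78540) and Ms4a1 in CD8+ cDC (19147). Summed plasma cell markers came to 186133, 69676 and 50932, led by Xbp1, with Jchain at 7870, 14060 and 957. Neutrophil markers summed to 3579, 27685 and 2142, monocyte markers to 56252, 266184 and 184522, and macrophage markers to 57946, 196555 and 109872, so all of these lists were dimmer in pDC than in CD11b+ cDC. NK cell markers summed to 97234, 98066 and 6288, of which Klrd1 made up 96243, 83389 and 4413, with Ncr1, Prf1 and Eomes at background everywhere. Erythroid markers were alike at 19158, 21185 and 14112, platelet markers summed to 21507, 7227 and 1482, led by Itgb3 (20707 in pDC), and basophil markers to 584, 1466 and 625. What part other cells had in the differences below was not tested.

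The pDC array stood apart from the other arrays more often than either cDC array did. Of the 11011 genes above background, 10.4% were higher in pDC than in both cDC and 8.56% were lower, 18.9% in all. By the same rule, CD11b+ cDC differed in the same direction from the other arrays at 879 genes (7.98%) and CD8+ cDC at 1140 (10.4%). Higher genes made up 54.8% of the pDC members, and 58.6% with spike-in scaling. The lesser fold had a median of 3.38 among higher genes and 4.12 among lower genes. At least 10-fold were 216 higher and 231 lower genes, and at least 100-fold were 42 and 17. Both cDC arrays were at background for 182 of the higher genes, whereas pDC was at background for 133 of the lower ones. The cDC arrays themselves were within 2-fold of each other for 894 of the 1141 higher genes and for 607 of the 943 lower ones. Lying between the cDC subsets, with at least 2-fold on either side, were 46 genes that were higher than CD11b+ and lower than CD8+ cDC, and 49 the other way round.

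**Figure D2:**
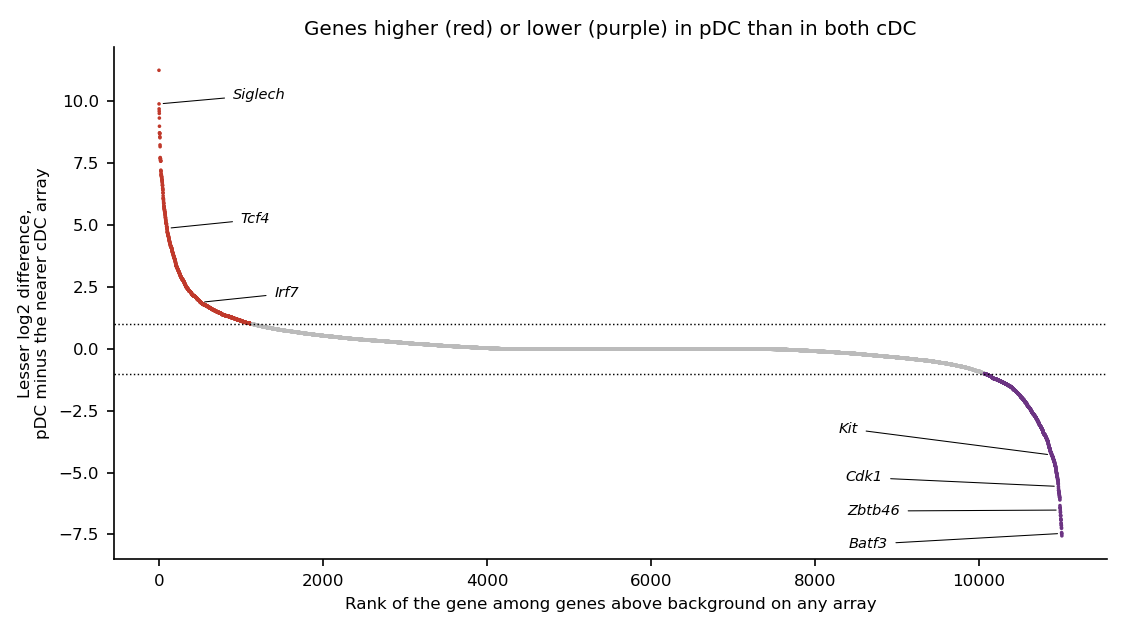
Lesser log2 difference between pDC and the nearer cDC array for 11011 genes above background, ranked from highest to lowest, with 2-fold dotted and 0 where pDC lay between the cDC arrays. Red marks the 1141 genes higher and purple the 943 genes lower in pDC than in both cDC.

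Genes at the edge of the rule differed little from their neighbours outside it. Just inside for higher were Slc35e2 (24596, 12270 and 10691 on the pDC, CD11b+ and CD8+ arrays), Fam217b and Fbxl4, and just outside were Abcb1b (8380, 4194 and 1088), Arv1 and Zfp952. For lower, Ahcyl2, Lst1 and Hlcs were just inside, and Vwa5a, Actg1 and Gpr31b just outside. Lesser log2 differences were 1.003 to 1.006 just inside and 0.998 to 0.999 just outside for higher genes, and -1.003 to -1.006 against -0.997 to -0.998 for lower genes.

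Of 26 pDC identity genes measured, all above background, 25 were higher than both cDC and 0 were lower, with a median lesser difference of 6.09 on the log2 scale against 0.0 over all genes. The exception was Plac8, at 310748 in pDC, 186350 in CD11b+ and 118885 in CD8+ cDC, 1.67-fold higher. In 9 of the 25 both cDC arrays were at background, and 22 exceeded 10-fold. The list was made of genes known for pDC and includes the markers above. It was chosen with earlier results of these data known, so its direction is no independent check of the sort.

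Promoters of Siglech, Bst2 and Ccr9, of the pDC markers above, are shown (those of Tcf4 and Ly6d are not shown here) because Tcf4 and other E proteins are known to bind E-boxes, in particular the form CACCTG, which reads CAGGTG on the other strand. Each runs from 250 bases before to 50 bases after the transcription start, 5′ to 3′ on the gene's strand, from RefSeq on the mouse build GRCm38.p6, and capitals mark CACCTG or CAGGTG. The Siglech promoter lies at chr7:55767934-55768233 on the plus strand, that of Bst2 at chr8:71537423-71537722 on the minus strand and that of Ccr9 at chr9:123766961-123767260 on the plus strand.
Siglech: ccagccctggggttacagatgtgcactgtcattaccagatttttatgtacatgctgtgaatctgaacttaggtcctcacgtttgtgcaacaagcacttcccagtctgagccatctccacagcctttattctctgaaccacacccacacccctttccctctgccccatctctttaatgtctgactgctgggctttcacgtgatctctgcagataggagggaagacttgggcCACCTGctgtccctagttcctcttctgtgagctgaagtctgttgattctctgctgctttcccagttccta
Bst2: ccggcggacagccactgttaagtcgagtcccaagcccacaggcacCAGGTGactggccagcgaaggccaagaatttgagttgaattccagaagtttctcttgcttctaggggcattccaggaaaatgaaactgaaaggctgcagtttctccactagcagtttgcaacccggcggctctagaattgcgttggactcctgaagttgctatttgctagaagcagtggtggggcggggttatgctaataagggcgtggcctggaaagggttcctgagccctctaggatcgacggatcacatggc
Ccr9: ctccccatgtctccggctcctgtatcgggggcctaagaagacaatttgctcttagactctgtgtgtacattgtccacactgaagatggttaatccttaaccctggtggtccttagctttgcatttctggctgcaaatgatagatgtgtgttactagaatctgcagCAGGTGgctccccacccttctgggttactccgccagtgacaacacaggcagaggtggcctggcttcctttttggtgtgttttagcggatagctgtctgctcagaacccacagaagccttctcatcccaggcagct
Each of the 3 shown held 1 match, against 6 of 19 promoters over the whole pDC identity list they belong to, starting 20 bases before the start in Siglech, 205 bases before it in Bst2 and 85 bases before it in Ccr9. A match on either strand was present in 20.0% of 27025 promoters of this length and in 17.3% of the 8977 that belonged to genes above background. The share was 21.3% of 901 promoters of genes higher in pDC and 15.6% of 756 promoters of lower genes. Among genes at least 10-fold higher it was 26.1% of 165, and among those at least 10-fold lower 13.6% of 176. The general E-box CANNTG, which includes these letters, was found in 64.9% of higher, 63.4% of lower and 63.1% of all promoters above background, and the Myc-type E-box CACGTG in 9.66%, 7.67% and 10.4%. A match describes letters only and is not evidence of binding.

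Promoters of pDC identity genes were also poorer in CpG. Rich in CpG (at least 50% G and C and an observed to expected ratio of at least 0.6) were 6 of 19 of them (31.6%), and 7 of 17 (41.2%) for the cDC markers that were lower in pDC. Over all genes above background the share was 69.5%, and it was 64.5% for all higher and 63.8% for all lower genes.

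Among the leading genes higher in pDC, Havcr1 (Tim-1, a phosphatidylserine receptor) gave 81385 in pDC, 56.7 in CD11b+ and 62.7 in CD8+ cDC, at least 732-fold higher. Cdh1 (E-cadherin, the adhesion molecule of epithelial junctions) gave 86751, 105 and 106, at least 780-fold higher. Slco4a1, an organic anion transporter, gave 123616, 93 and 149, 832-fold higher by its brightest probe set and 86.8-fold by its other one. All of these went from background or close to it in both cDC to bright signals in pDC. Ptprf, a receptor tyrosine phosphatase, gave 53122, 55.5 and 125 (425-fold), with its 3 probe sets between 7.33-fold and 425-fold. Atp1b1, the beta subunit of the sodium pump, was expressed in cDC at 1164 and 1168 and still was 288-fold higher in pDC at 336847, with its 4 probe sets between 154-fold and 993-fold. Sdc4, a heparan sulfate proteoglycan, gave 50747, 410 and 196 (124-fold). In each of these genes every probe set above background passed 2-fold in the same direction.

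Chdh, the choline dehydrogenase of mitochondria, gave 71550 in pDC, 67.3 in CD11b+ and 63 in CD8+ cDC (at least 644-fold). Cox6a2, a cytochrome c oxidase subunit otherwise known from heart and skeletal muscle, gave 46070, 74.1 and 94 (at least 414-fold). Upb1, the last enzyme of pyrimidine breakdown, gave 59189, 158 and 299 (198-fold). The widely expressed oxidative phosphorylation genes did not share this pattern: of 26 measured, 0 were higher and 0 lower than both cDC. Fads3, of the fatty acid desaturase family, was at least 126-fold higher, and Dusp9, a phosphatase of MAP kinases, 113-fold higher. Mctp2, Smim5, Jakmip1 and Tmem163 were among the other leading genes, with pDC signals of 33676, 96546, 23649 and 22920. Jakmip1 and Kank2 rested more on 1 probe set, since their dimmest probe sets differed by 2.89-fold and 3-fold against 213-fold and 107-fold for the brightest.

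**Figure D3:**
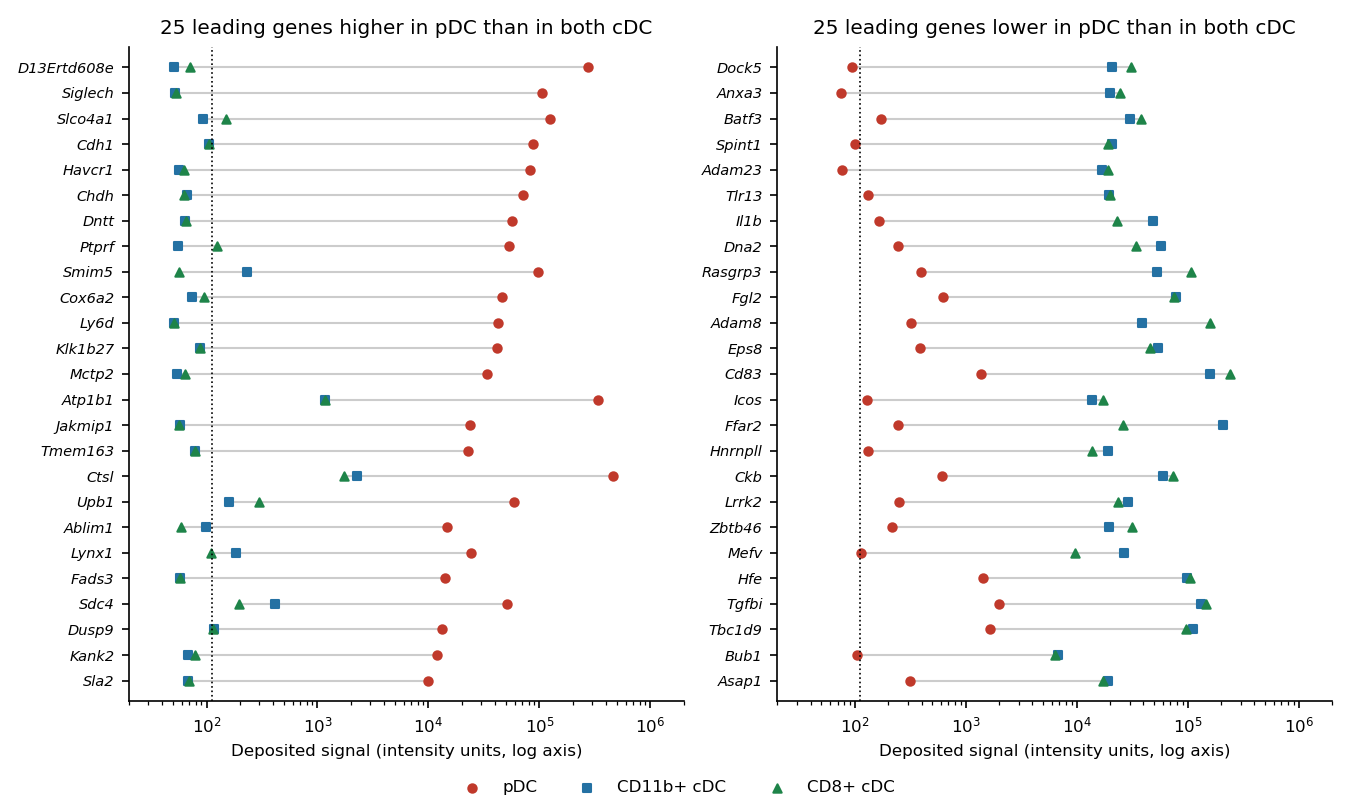
Deposited signals (log axis) on the 3 arrays for the 25 leading genes in each direction, ordered by the lesser fold, with the background level dotted. The cDC signals lie at or near background for most of the higher genes, and the pDC signals for many of the lower genes.

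By the chosen probe sets, the largest fold was that of D13Ertd608e, at 272636 in pDC, 51.3 in CD11b+ and 71.3 in CD8+ cDC (at least 2452-fold). It rests on 1 probe set of a kind designed to match several transcripts, and its neighbours on chromosome 13 include closely related copies, so the gene behind the signal is uncertain. In the same cluster Gm20767 (276, 124 and 134), AF067061 (310, 103 and 107), BC147527 (37743, 7624 and 2301) and Tcstv3 (3846, 1167 and 235) were higher as well. The kallikrein Klk1b27 (41186, 86.9 and 88.1) and Klk1 (36379, 948 and 818) belong to a family of near-identical copies too, and which of them was measured is likewise uncertain. The 4 probe sets of Klk1 ranged from 1.08-fold to 3217-fold higher, the chosen one being 38.4-fold higher.

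Transcription factors of pDC were mostly higher: of 23 measured, 14 were higher than both cDC and 3 were lower, against 10.4% and 8.56% of all genes. Besides Tcf4, the list was led by the homeobox factor Hoxa9, at 14522 in pDC, 159 in CD11b+ and 161 in CD8+ cDC (90.3-fold). Ets1, an ETS factor of lymphocytes, gave 91627, 3684 and 629 (24.9-fold). Spib, the ETS factor required for pDC function, gave 142803, 13919 and 1619 (10.3-fold). For Ets1 and Spib the CD11b+ array was the brighter of the cDC pair. The Ikaros family members Ikzf2 (9286, 545 and 945) and Ikzf3 (2783, 548 and 50.1) were higher, whereas Ikzf1 gave 86618, 87056 and 36316 and lay level with CD11b+ cDC. The E protein Tcf12 gave 117870, 11306 and 21195 (5.56-fold), and Bcl11a, which acts with Tcf4 in pDC development, 66022, 27599 and 15213 (2.39-fold). Zeb2, a repressor of Id2 in pDC, was 5.71-fold higher, and Irf7, the master regulator of interferon genes, was 3.69-fold higher at 31744, 8613 and 6648. Where every probe set of a gene had to pass, 9 members of the list were higher.

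Some factors of the list did not separate pDC from cDC. Irf8, needed by both pDC and CD8+ cDC, gave 646349 in pDC, 11554 in CD11b+ and 534491 in CD8+ cDC, so pDC and CD8+ cDC were within 1.21-fold. Lower than both cDC were the nuclear receptor Nr4a3 (220, 8636 and 21562), the proliferation-linked Myb relative Mybl2 (97.2, 638 and 734) and Runx1 (1260, 3620 and 3709). By its other probe set Mybl2 was only 1.21-fold lower. Myb itself went the other way, at 67198, 3530 and 10832 (6.2-fold higher).

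Of 35 genes of type I interferon induction, 9 were higher than both cDC (25.7%, against 10.4% of all genes). The 9 include Tram1 (232577, 91421 and 89189), which is a secretory pathway gene and is counted there too. Lower was 1 (2.86%, against 8.56%), and 25 were neither, with a median of 0.07. Ctsl, cathepsin L of lysosomes, gave 463795 in pDC, 2257 in CD11b+ and 1719 in CD8+ cDC (206-fold), with its other probe set at 78.1-fold. Pacsin1, an adaptor of membrane traffic that pDC need for interferon responses, gave 24383, 350 and 717 (34-fold). Tlr7, the receptor for single-stranded RNA, gave 36594, 8127 and 140, so it was 4.5-fold above CD11b+ cDC and close to background in CD8+ cDC. Tlr9, the receptor for CpG DNA, was dim on all arrays at 393, 214 and 203. The chaperone and adaptor transcripts shared by endosomal receptors were similar, with Unc93b1 at 43866, 27461 and 29654, Myd88 at 9872, 16144 and 11235 and Irf3 at 29547, 29213 and 26614. Of the receptor for interferon itself, Ifnar2 was 3.18-fold and Ifnar1 2.27-fold higher. The scramblase Plscr1, an interferon-stimulated gene, was lower at 1954, 9900 and 13437 (5.07-fold).

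Immunoreceptors divided in both directions, with 13 of 39 above background higher (33.3%, against 10.4% of all genes) and 7 lower (17.9%, against 8.56%). With spike-in scaling 3 were lower. Higher were Klra17 (114938, 1162 and 510), a Ly49 family receptor, and Slamf9 (35139, 775 and 337). Lair1, an inhibitory collagen receptor, gave 114308, 16208 and 461 (7.05-fold), and Lag3, an inhibitory receptor for MHC class II, 3840, 62.7 and 63.5 (at least 34.5-fold). Blnk, the adaptor that links immune receptors to calcium signalling, gave 31610, 137 and 163 (193-fold). Lower in pDC were Havcr2 (Tim-3) at 1802, 30910 and 67423 (17.2-fold), Slamf7 at 1130, 12371 and 15718 (10.9-fold) and Cd274 (PD-L1) at 1963, 29976 and 5688 (2.9-fold). The Tim receptors thus opposed each other, Havcr1 being detected in pDC only and Havcr2 brightest in CD8+ cDC.

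Of 30 homing receptors 5 were higher (16.7%, against 10.4% of all genes) and 5 lower (16.7%, against 8.56%, or 3 genes with spike-in scaling). Beside Ccr9 and Cdh1, the sphingosine phosphate receptor S1pr4 gave 18704, 816 and 999 (18.7-fold higher). Ccr2, which directs cells out of bone marrow and into inflamed tissue, gave 15908, 1226 and 628 (13-fold). Cxcr3 gave 54070, 1045 and 26748, high in pDC and CD8+ cDC and only 2.02-fold higher in pDC. Ccr7, the receptor that guides mature DC to the T cell zone, was lower at 483, 17420 and 31729 (36.1-fold). Integrin Itgax (CD11c), the common marker of cDC, was still bright in pDC at 27138 but 3.04-fold below the nearer cDC array, with 152080 and 82543.

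Of 32 genes of lymphoid and B lineage development 11 were at background on every array, 14 were higher in pDC and 0 lower, against 10.4% and 8.56% of all genes. Of the 14, 5 were at background in both cDC and so entered through pDC alone. Dntt, the terminal transferase that adds nucleotides during receptor gene recombination, gave 56845 in pDC, 64.6 in CD11b+ and 65.4 in CD8+ cDC (at least 511-fold), with its 3 probe sets between 7.53-fold and 511-fold. Rag1 was dim but detected in pDC only, at 640, 67.6 and 68.5. Il7r, the interleukin 7 receptor of lymphoid progenitors, gave 152617, 5422 and 2739 (28.1-fold). Notch1 gave 43858, 557 and 1199 (36.6-fold), and Cd8b1 12161, 74.7 and 76.9 (at least 109-fold). Mzb1, a chaperone of antibody-secreting cells, gave 47739, 249 and 89.2 (192-fold). In contrast, Cd79a, Pax5 and Ebf1 were at background, and the B cell gene Ms4a1 (CD20) was lower in pDC at 223, 11046 and 19147 (49.5-fold). Of T cell genes, Cd28 was higher at 4830, 58.9 and 61.9 (at least 43.4-fold), whereas Icos was lower at 129, 13843 and 17373 (107-fold).

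Of 56 secretory pathway genes 12 were higher (21.4%, against 10.4% of all genes), 0 lower (against 8.56%) and 44 neither, and the median was 0.25. Xbp1, the transcription factor of the unfolded protein response, gave 120877 in pDC, 42657 in CD11b+ and 47954 in CD8+ cDC (2.52-fold), and its activating enzyme Ern1 (IRE1) 48443, 13534 and 15972 (3.03-fold). Sec24d, a coat protein of vesicles leaving the endoplasmic reticulum, gave 48738, 1301 and 10646 (4.58-fold). Edem2 and Edem3, which direct misfolded glycoproteins to degradation, were 3.47-fold and 3.43-fold higher. The abundant folding chaperones were not: Hspa5 (BiP) gave 426855, 303109 and 456766, and Calr 105379, 85711 and 165911, with CD8+ cDC the brightest of the 3. Most differences were modest, since 1 of the 12, Mzb1, exceeded 10-fold.

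Of 26 lysosomal proteases and related genes 7 were higher (26.9%, against 10.4% of all genes) and 0 lower (against 8.56%). After Ctsl the largest differences were Ctsw at 631, 130 and 126 and the cholesterol exporter of lysosomes Npc1 at 34329, 8121 and 2658 (4.23-fold). Ctsb gave 370852, 123802 and 105911 (3-fold). Ctss, the protease that trims the class II invariant chain, was level at 557959, 587282 and 439810. Of the cathepsins in the list, Ctsl had the largest fold.

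Cholesterol genes were higher in pDC at 11 of 23 (47.8%, against 10.4% of all genes), with a median of 0.77. They were lower at 2 (8.7%, against 8.56%), or 1 with spike-in scaling. Along the synthesis pathway, Hmgcs1, the synthase that precedes the statin-sensitive step, gave 126720 in pDC, 45981 in CD11b+ and 39610 in CD8+ cDC (2.76-fold). Idi1, Fdps and Fdft1 of the isoprenoid steps were 2.5-fold, 2.7-fold and 2.5-fold higher. Sqle and Lss, which form the sterol ring, were 2.99-fold and 2.57-fold higher, and Dhcr7, the last enzyme, gave 8266, 1099 and 1023 (7.52-fold). Only enzymes past 2-fold are named here, with folds below 8, and 10 of the 23 genes passed in neither direction. Insig1, a sterol-responsive regulator, gave 27461, 3402 and 4378 (6.27-fold), and the pathway's activator Srebf2 gave 4402, 5744 and 2349. Lrp8, a receptor for lipoproteins and reelin, gave 57436, 2230 and 151 (25.8-fold), and the phospholipid transfer protein Pltp 411198, 34782 and 1134 (11.8-fold). Lower were Apoe (7767, 27747 and 18287) and the lysosomal lipase Lipa (12263, 25014 and 40935).

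Cytokine receptors separated pDC in both directions, 9 of 37 being higher (24.3%, against 10.4% of all genes) and 10 lower (27%, against 8.56%). Lifr, the receptor for leukemia inhibitory factor, gave 78962, 1993 and 327 (39.6-fold higher), but Il6st (gp130), the chain it signals with, was lower at 7632, 38798 and 26022 (3.41-fold). Csf2rb2, a beta chain of the interleukin 3 receptor, was 7.05-fold higher at 230331, 15837 and 32667, whereas Csf2ra, the ligand-binding chain of the GM-CSF receptor, was 4.95-fold lower at 3398, 16808 and 22200. The common beta chain Csf2rb, which pairs with Csf2ra, was 1.73-fold higher in pDC, short of the rule. Kit, the stem cell factor receptor, was lower at 1926, 88507 and 37647 (19.5-fold), and so was Ifngr1 at 5809, 57693 and 119595 (9.93-fold). Flt3, the receptor for the growth factor that all DC depend on, was similar at 42851, 56499 and 78033.

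Among the leading genes lower in pDC than in both cDC, Dock5, an activator of the GTPase Rac, gave 93.6 in pDC, 20876 in CD11b+ and 30755 in CD8+ cDC (at least 188-fold lower), although its 3 probe sets ranged from 7.25-fold to 188-fold. Anxa3, a phospholipid-binding annexin, gave 74.5, 19855 and 24527 (at least 179-fold). Spint1, an inhibitor of serine proteases, gave 99.7, 20703 and 19073 (at least 172-fold). All of these were at background in pDC. The disintegrin family members Adam23 (76.4, 16934 and 19078) and Adam8 (321, 38784 and 160044) were at least 152-fold and 121-fold lower. Eps8, an actin capping protein, gave 390, 54011 and 46251 (119-fold). Ffar2, which senses short-chain fatty acids, was much the brightest in CD11b+ cDC, at 248, 207692 and 26361 (106-fold). Tgfbi gave 2004, 132478 and 147770, with its 4 probe sets between 42.1-fold and 145-fold. Dna2, a nuclease of DNA replication, was 139-fold lower by its brightest probe set but 2.17-fold by its least changed one.

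Markers shared by conventional DC were lower in pDC at 26 of 34 (76.5%, against 8.56% of all genes) and higher at 0 (against 10.4%). The median was -3.96, and 5 of the 26 were at background in pDC. Cd83, a maturation marker, gave 1372 in pDC, 159344 in CD11b+ and 241996 in CD8+ cDC (116-fold). The costimulatory ligands Cd80 (147, 3629 and 3369) and Cd86 (655, 12878 and 70310) and the receptor Cd40 (1680, 34751 and 40480) were 22.9-fold, 19.7-fold and 20.7-fold lower. Fscn1, the actin bundler of DC dendrites, gave 8545, 257983 and 228649 (26.8-fold). The interleukin 12 subunit Il12b was dim outside CD8+ cDC, at 113, 295 and 13132 (2.61-fold). Haao and Hmgn3 went slightly the other way without reaching 2-fold, at 1.63-fold and 1.73-fold higher in pDC.

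Transcription factors of cDC were lower at 10 of 23 (43.5%, against 8.56% of all genes) and higher at 0 (against 10.4%). Batf3, required for CD8+ cDC, gave 172 in pDC, 30189 in CD11b+ and 37688 in CD8+ cDC (176-fold). Zbtb46, the zinc finger factor that marks the cDC lineage, gave 215, 19657 and 31850 (91.3-fold), although 1 of its 3 probe sets showed 3.56-fold. Id2, the inhibitor of E proteins, gave 5378, 236305 and 385975 (43.9-fold), the reverse of Tcf4. Spi1 (PU.1), a myeloid ETS factor, was 8.04-fold lower at 2443, 32009 and 19638, the reverse of its relative Spib. Myc was at background in pDC and at 2857 and 1922 in cDC. Relb, the NF-kappaB subunit of cDC, was 6.45-fold lower, and Ahr, the aryl hydrocarbon receptor, 7.85-fold lower. Not every factor of the list was lower than both cDC: Irf4 gave 5566, 11713 and 855, with pDC in between.

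**Figure D4:**
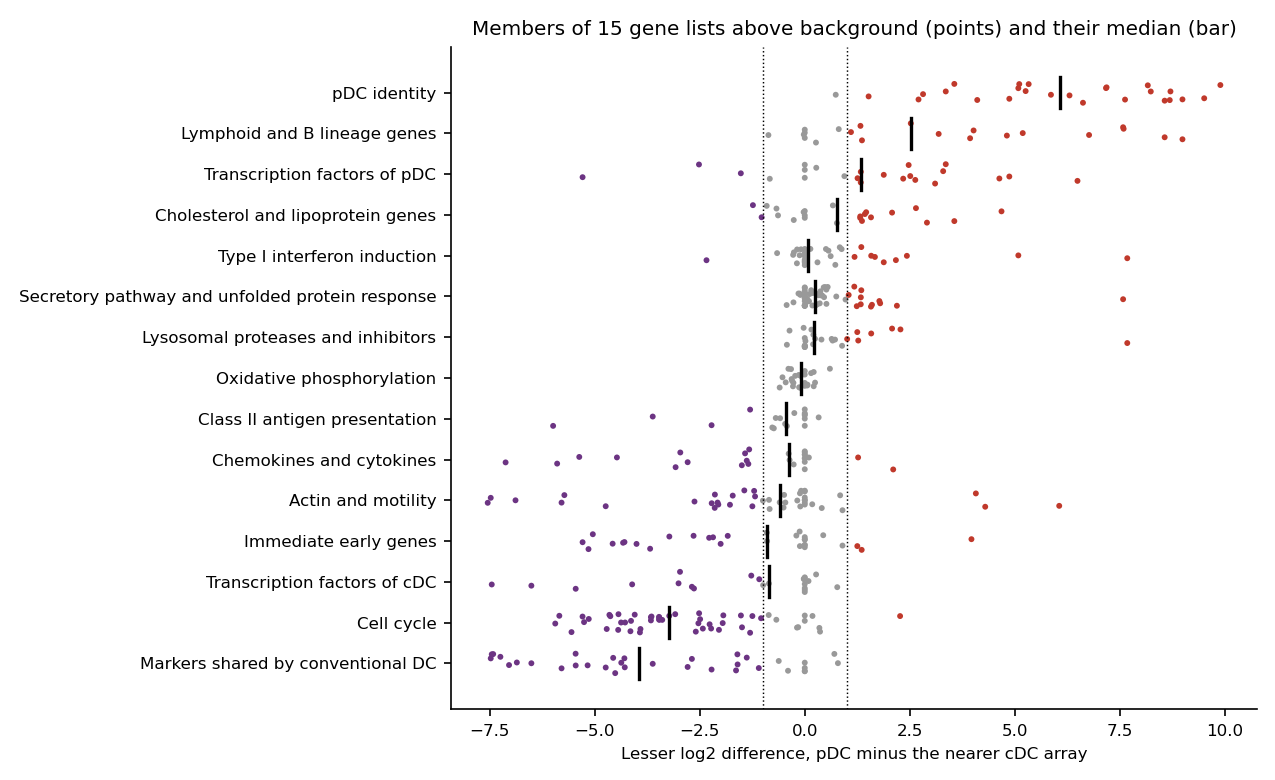
Lesser log2 difference between pDC and the nearer cDC array for each member above background (points) of 15 gene lists, with 2-fold dotted and the list median as a bar. Medians run from 6.09 for pDC identity to -3.96 for markers shared by conventional DC, and that of cell cycle genes is -3.23.

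Subset markers of cDC did not all set pDC apart. Of 22 CD11b+ cDC markers, 6 were lower in pDC (27.3%, against 8.56% of all genes). Against the name of the list, 4 were higher in pDC (18.2%, against 10.4%). Clec10a, a galactose-binding lectin of CD11b+ cDC in other tissues, gave 186442 in pDC, 957 in CD11b+ and 270 in CD8+ cDC (195-fold higher). Its relative Mgl2 was dim at 778, 93.7 and 61.1, and probes of such close relatives may cross-react. Cd4 gave 37302, 14501 and 110 (2.57-fold), and Cd209a 21544, 8650 and 100 (2.49-fold). Sirpa, often used to define CD11b+ cDC, gave 36974, 78989 and 2545. In pDC, Cd4, Cd209a and Sirpa lay nearer to CD11b+ than to CD8+ cDC. Lower were Il1b (166, 48684 and 23205), Esam (136, 20158 and 2516) and the lectin for fungal glucans Clec7a (403, 22365 and 3419). Of 25 CD8+ cDC markers above background, 7 were lower (28%, against 8.56% of all genes) and 0 higher (against 10.4%). Among the lower ones were Tlr3 (435, 2629 and 132701) and Wdfy4, needed for cross-presentation (45401, 242586 and 332610).

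Of 10 Toll-like receptors above background, Tlr7 was the only one higher in pDC (10%, against 10.4% of all genes). Lower were 6 (60%, against 8.56%). Tlr13, a receptor for bacterial ribosomal RNA, gave 131 in pDC, 19426 in CD11b+ and 19796 in CD8+ cDC (148-fold). Tlr1 was at background in pDC and brightest in CD11b+ cDC, at 50790 against 3806 in CD8+ cDC. Tlr2, Tlr4 and Tlr6, sensors of bacterial lipids with Tlr1, were 2.73-fold, 3.29-fold and 3.47-fold lower. These counts were the same with spike-in scaling.

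Chemokines and cytokines were lower at 12 of 25 above background (48%, against 8.56% of all genes) and higher at 2 (8%, against 10.4%). Ccl5 gave 808 in pDC, 131767 in CD11b+ and 48201 in CD8+ cDC (59.7-fold). Cxcl16 gave 110, 4603 and 35379 (at least 41.4-fold) and Cxcl9 292, 6482 and 159117 (22.2-fold), each brightest in CD8+ cDC. Il18 was 8.44-fold lower, at 1028, 10060 and 8672. The higher members were Ccl4 (4449, 1033 and 276) and Tnfsf10 (TRAIL), a death ligand that pDC are known for (600, 249 and 82.2). With spike-in scaling 1 member was higher.

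Class II presentation genes were lower at 4 of 18 (22.2%, against 8.56% of all genes) and higher at 0 (against 10.4%). H2-Ob, a subunit of the peptide-loading regulator H2-O, gave 9414 in pDC, 170038 in CD11b+ and 115930 in CD8+ cDC (12.3-fold). Ciita, the transactivator of class II genes, was 4.66-fold lower at 4155, 19362 and 20722. The class II chains themselves differed less: H2-Ab1 gave 502865, 695183 and 765493, and the invariant chain Cd74 253110, 421986 and 424116, 1.38-fold and 1.67-fold lower. Cd9, a tetraspanin that organises class II in membranes, gave 370, 23618 and 48284 (63.8-fold).

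Cell cycle genes were the largest block of lower genes in the lists. Of 53 measured, 43 (81.1%) were lower in pDC than in both cDC and 1 was higher, against 8.56% and 10.4% of all genes, and the median was -3.23. With spike-in scaling 38 were lower. At least 10-fold lower were 26, and 7 were at background in pDC. Ccnb2, a mitotic cyclin, gave 133 in pDC, 8173 in CD11b+ and 9506 in CD8+ cDC (61.5-fold). Cdk1, the kinase that mitotic cyclins activate, gave 103, 5233 and 5233 (at least 47.1-fold). Bub1, a kinase of the spindle checkpoint, gave 106, 6806 and 6397 (at least 57.5-fold), or 2.12-fold by its other probe set, and Kif23, a motor of cell division, 365, 14312 and 22370 (39.2-fold). By the probe sets given, the cDC arrays were within 2-fold of each other. Top2a (896, 41156 and 19409) and Mki67 (3831, 74329 and 48604) were lower by 21.7-fold and 12.7-fold, but both remained above background in pDC. Cdc6, which loads the replicative helicase, was 10.5-fold lower, and the Mcm genes of that helicase ran from Mcm5 at 14362, 110696 and 83206 (5.79-fold) to Mcm4, which at 1.81-fold did not pass. The inhibitor Cdkn2d (p19) was the member that was higher, at 10445, 2164 and 957 (4.83-fold), whereas the inhibitor Cdkn1a (p21) was lower at 582, 3136 and 14413 (5.38-fold). Cyclin D genes did not share the pattern: Ccnd1 gave 107267, 179199 and 31640, Ccnd2 2241, 17252 and 1707 and Ccnd3 9463, 21402 and 10757.

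Promoters of Ccnb2, Cdk1, Bub1 and Kif23 are shown because genes of the late cell cycle are known to share a CHR element, written TTTGAA, and CCAAT boxes, bound by NF-Y. They come from the same RefSeq table and build, 5′ to 3′ on the gene's strand, and capitals mark TTTGAA or TTCAAA and CCAAT or ATTGG, the last letters of each pair being the other strand. All 4 lie on the minus strand, Ccnb2 at chr9:70421505-70421804, Cdk1 at chr10:69352863-69353162, Bub1 at chr2:127831810-127832109 and Kif23 at chr9:61946750-61947049.
Ccnb2: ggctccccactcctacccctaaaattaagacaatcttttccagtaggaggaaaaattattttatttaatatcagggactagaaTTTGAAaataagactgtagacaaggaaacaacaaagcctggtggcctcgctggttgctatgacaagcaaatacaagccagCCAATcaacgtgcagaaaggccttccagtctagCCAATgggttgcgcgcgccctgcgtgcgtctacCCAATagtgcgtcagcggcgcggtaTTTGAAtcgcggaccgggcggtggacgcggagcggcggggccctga
Cdk1: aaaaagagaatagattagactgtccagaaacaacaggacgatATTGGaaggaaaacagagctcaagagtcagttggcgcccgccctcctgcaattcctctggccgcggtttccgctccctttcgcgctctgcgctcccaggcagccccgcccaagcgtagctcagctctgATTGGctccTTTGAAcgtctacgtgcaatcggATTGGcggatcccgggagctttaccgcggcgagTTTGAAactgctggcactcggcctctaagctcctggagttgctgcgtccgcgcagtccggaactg
Bub1: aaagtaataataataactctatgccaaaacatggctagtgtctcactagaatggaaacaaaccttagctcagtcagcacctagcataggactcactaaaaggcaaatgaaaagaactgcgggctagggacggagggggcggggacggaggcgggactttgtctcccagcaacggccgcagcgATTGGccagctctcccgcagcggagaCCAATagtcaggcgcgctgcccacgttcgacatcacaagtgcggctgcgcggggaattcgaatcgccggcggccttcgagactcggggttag
Kif23: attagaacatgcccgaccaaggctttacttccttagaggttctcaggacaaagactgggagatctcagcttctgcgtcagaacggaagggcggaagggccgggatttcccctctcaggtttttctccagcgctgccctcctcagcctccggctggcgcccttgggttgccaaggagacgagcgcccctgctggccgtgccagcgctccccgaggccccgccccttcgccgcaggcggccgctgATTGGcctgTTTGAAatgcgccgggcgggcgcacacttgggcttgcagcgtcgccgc
By the letters searched, Ccnb2 held 2 CHR matches and 3 CCAAT boxes, Cdk1 2 and 3, Bub1 0 and 2, and Kif23 1 and 1. Other spellings of the CHR, such as TTCGAA, which the Bub1 sequence holds, were not searched, so CHR counts here cover TTTGAA only. A CHR match was present in 17 of 34 promoters of the lower cell cycle genes (50%), against 12.1% of promoters of genes above background and 18.2% of all promoters. A CCAAT box was present in 76.5% of the 34 against 39.1% and 38.0%. Without the 50 bases after the start, the CHR share of the 34 was 29.4% and the CCAAT share was also 76.5%. Over all genes at least 10-fold lower in pDC, 24.4% of 176 promoters had a CHR match, and over all genes at least 10-fold higher 10.9% of 165.

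**Figure D5:**
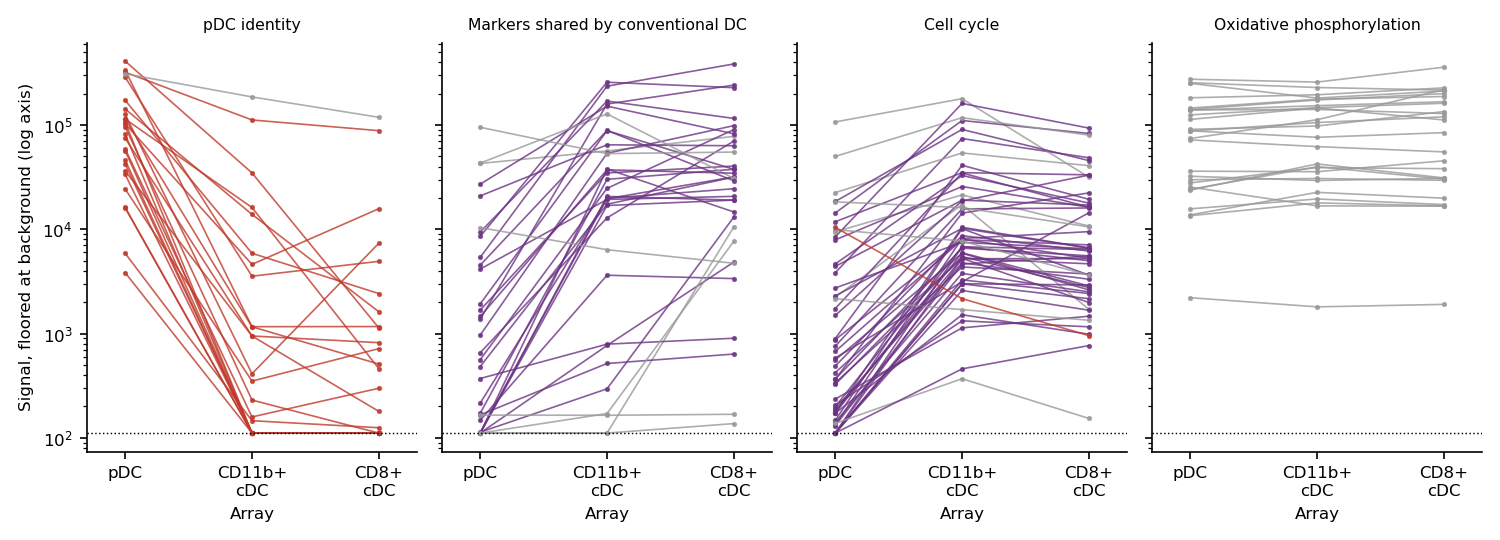
Signals of the members of 4 gene lists on the 3 arrays, set to the dotted background level where lower (log axis), with a line per gene joining its values, red where higher and purple where lower in pDC than in both cDC. In the cell cycle panel 43 of 53 lines run upwards from pDC to both cDC arrays, and in the oxidative phosphorylation panel no line passes 2-fold against both.

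Immediate early genes, which cells induce within minutes of a stimulus or of handling, were lower at 14 of 30 (46.7%, against 8.56% of all genes). They were higher at 3 (10%, against 10.4%), or 2 with spike-in scaling. Egr1 gave 4573 in pDC, 69823 in CD11b+ and 58783 in CD8+ cDC (12.9-fold), Egr2 875, 20892 and 21355 (23.9-fold) and the stress-induced factor Atf3 681, 28586 and 22548 (33.1-fold). All 3 receptors of the Nr4a family were lower, by 9.35-fold for Nr4a1, 16.1-fold for Nr4a2 and 39.2-fold for Nr4a3. Fos was level at 359684, 389867 and 435828. Jun was 2.38-fold higher at 187988, 78932 and 39962, but 1.14-fold by its other probe set. Cd69, an early activation antigen that retains cells in tissue, was higher at 9242, 589 and 542 (15.7-fold). The class did not move as a block, and whether handling during the sort played a part was not tested.

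Actin and motility genes were lower at 18 of 43 (41.9%, against 8.56% of all genes) and higher at 3 (6.98%, against 10.4%). Marcksl1 gave 1998 in pDC, 114349 in CD11b+ and 105838 in CD8+ cDC (53-fold), Flna, the actin crosslinker filamin A, 4609, 34269 and 28462 (6.18-fold), and Vim (vimentin) 29171, 95819 and 152357 (3.28-fold). Actb was 1.79-fold and Cfl1 1.42-fold lower, short of the rule. Higher were the filament capping protein Capg (24722, 370 and 53.6), galectin 1, Lgals1 (392264, 19921 and 7302), and the large scaffold Ahnak (132014, 1400 and 7830). Galectins 1 and 3 were opposed, since Lgals3 was lower at 5038, 21261 and 195334 (4.22-fold).

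Metabolic and housekeeping genes are set beside the 10.4% higher and 8.56% lower of all genes. Of 22 glycolysis genes 2 were higher (9.09%) and 4 lower (18.2%). Hk2 (1475, 18778 and 16730) and Pfkfb3, the enzyme that makes the activator of phosphofructokinase (1257, 22771 and 41640), were lower, and Ldhb (50562, 2149 and 694) was 23.5-fold higher while Ldha gave 64502, 87490 and 127040. Of 13 housekeeping genes 1 was higher, the transferrin receptor Tfrc (130348, 49620 and 11230), and 0 were lower. Of 43 proteasome subunits, 0 were higher and 0 lower, and of 48 ribosomal protein genes 2 were lower and 0 higher.

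Gene families were counted by symbol beside the 10.4% higher and 8.56% lower of all genes. Zinc finger genes of the Zfp series were higher at 31 of 261 (11.9%) and lower at 6 (2.3%). Zfp658 led them at 25409, 170 and 88.4 (149-fold), and Zfp521 gave 8062, 893 and 70.8, although probes of this repetitive family can cross-react. TRIM ubiquitin ligases were higher at 7 of 38 and lower at 1. Trim25, which activates the RNA sensor RIG-I, gave 151818, 56073 and 48678 (2.71-fold). Rab GTPases and their partners were lower at 11 of 57 and higher at 6, with Rab31 (165, 6185 and 8412) and Rab33b (186712, 8464 and 22166) at the extremes. Solute carriers were higher at 28 of 196 and lower at 17. Among them were the zinc transporter Slc39a14 (10224, 430 and 201), the magnesium transporter Slc41a2 (33844, 93.5 and 1358) and, in the other direction, the sodium-potassium-chloride carrier Slc12a2 (1744, 83181 and 15088). Higher and lower shares were 18.4% and 2.63% for TRIM genes, 10.5% and 19.3% for Rab genes and 14.3% and 8.67% for solute carriers. The higher shares of Zfp and Rab genes and the lower share of solute carriers were thus near those of all genes.

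Some members were neighbours in the genome, in the order of the 10975 genes above background that were placed. Genes at background or not measured were passed over, so neighbours need not be adjacent. How many runs the shares of all genes alone would give was not tested. Runs of at least 3 such neighbours with the same call included Clec4g (5317, 1193 and 193), Cd209a, Cd209e (1255, 41.4 and 61.1) and Cd209d (16091, 78.2 and 79.7) on chromosome 8. This cluster of related lectins was higher in pDC. Bst2 was followed on the same chromosome by Mvb12a, Slc27a1, Pgls and Niban3, which were 3.39-fold, 11.8-fold, 3.02-fold and 5.06-fold higher. On chromosome 15, Ly6d lay between Lynx1 (24149, 185 and 110) and Ly6k (734, 51.8 and 52.6), relatives that were higher too. Chdh lay between Il17rb, an interleukin 25 receptor chain (6663, 71.4 and 57.4), and Cacna1d on chromosome 14. Gimap6, Gimap1 and Gimap5, GTPases of lymphocyte survival on chromosome 6, were 32.8-fold, at least 51.9-fold and at least 2.4-fold higher. Among lower genes, the antiviral membrane proteins Ifitm2, Ifitm1, Ifitm3 and Ifitm6 on chromosome 7 were 19.7-fold, 4.87-fold, 3.57-fold and 16.2-fold lower, with Ifitm3 at 5524, 110631 and 19699. Serpinb1a, Serpinb6b and Serpinb9, protease inhibitors on chromosome 13, were 6.83-fold, 3.91-fold and 3.57-fold lower. The most extreme of 20 chromosomes are given last. Genes of the X chromosome were higher in pDC at 50 of 340 (14.7%) and lower at 16 (4.71%), and those of chromosome 16 were higher at 14.8% of 358, against 10.4% and 8.56% of all genes. On the other chromosomes the higher share was 6.62% to 12.7%.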

How the data were processed

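The deposited linear intensities, 1 for each probe set on an array, were used as they stand. The authors made them with MAS5 per the submitters' processing notes, which name no version, and any other scaling step is not given in the labels used here. Of 45101 probe sets, 34958 named a single gene in the platform annotation, 932 several and 9211 none. Of the single-gene probe sets, 34754 were found by gene number in RefSeq's table for GRCm38.p6, and 0 symbols differed. For each of 18194 genes, the probe set brightest on average (mean log2 of the 3 arrays) stood for the gene. Signals were floored at the background level of 111 before log2 was taken. There was no test, because each cell type had 1 array.

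The members, 33 gene lists and 34 symbol families were chosen with earlier results of these data known. Of 882 list entries, 63 found no gene by symbol and were not used. Genes to name were, per direction, the 15 largest lesser differences where 2 or more probe sets were above background and all passed 2-fold, the brightest array being at least 4 times background, then the 10 largest with a single probe set. Added were up to 4 members per list and direction, members that went against a list's name, 5 pDC markers, and the 3 genes nearest to 2-fold on either side. Other genes named, including family members, genome neighbours and genes set beside a list's leaders, were chosen after their values were seen.

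Promoters were matched by gene number to RefSeq's table, which held 8977 of the 11011 genes above background. The promoters shown were taken from it by symbol. Both strands were searched. The calling code was tested on simulated data. Python 3.11.15 with pandas 2.3.3, NumPy 2.4.6 and matplotlib 3.10.9 was used. Alternatives were 2 other background levels, 2 other array scalings, 3 other ways to take a gene's value, 2 other fold sizes, and promoters without the bases after the start.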

Additional observations from a re-analysis of the deposited data

How the results depend on the processing

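No paired analysis was possible because each cell type had 1 array. The counts of 1141 higher and 943 lower genes stayed within 1.5 times under both other background levels, both other scalings and the 3 other ways of taking a gene's value, at 929 to 1138 higher and 715 to 949 lower genes. At 4-fold there were 470 higher and 483 lower genes, 49.3% of them higher, and at 1.5-fold 1871 and 1421. Higher genes made up 58.6% with spike-in scaling, against 54.8%. None of the named genes past 2-fold changed sign under the alternatives run, though up to 4 came to lie between the cDC arrays. Of 167 such genes, 144 stayed past 2-fold with spike-in scaling, 157 with the background at the 99th percentile (412), and 154 where every probe set had to pass. Of the list and family counts, 110 of 134 stayed within 1.5 times with spike-in scaling. Signals near background limit the dim genes, whose folds are bounds, and a gene's value can rest on 1 probe set.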

Other observations

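Glycosyltransferases held some of the larger differences outside the groups described above. B3galnt1, which builds globoside-type glycans, gave signals of 19444 in pDC, 245 in CD11b+ and 128 in CD8+ cDC, 79.2-fold higher in pDC. St3gal6, a sialyltransferase, gave 10028, 353 and 302 (28.4-fold higher), whereas St3gal5, which makes the ganglioside GM3, was lower at 735, 8130 and 31211 (11.1-fold). Of 43 sialyl and galactosyl transferase genes above background, 6 were higher than both cDC (14%, against 10.4% of all genes). Lower were 2 (4.65%, against 8.56%), or 1 with spike-in scaling.

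Serpins and ion pumps gave further values. Of 15 serpin genes above background 2 were higher (13.3%, against 10.4% of all genes) and 4 lower (26.7%, against 8.56%). Serpinh1, the collagen chaperone of the endoplasmic reticulum, gave 13389, 180 and 288 (46.5-fold higher), and Serpinc1, antithrombin, 4274, 113 and 126 (34.1-fold higher). The calcium pump Atp2a1, otherwise known from fast skeletal muscle, gave 13240 in pDC and was at background in both cDC (at least 119-fold higher), while the widely expressed Atp2a3 gave 30097, 9089 and 2858 (3.31-fold higher). The tyrosine phosphatase Ptpn22 went the other way at 284, 37446 and 18208 (64.2-fold lower). These genes were chosen after their values were seen.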
